A study of Apis mellifera with 6 samples.

Results

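Of the stretches of chromatin that were accessible in every honey bee (Apis mellifera) brain library, 1654 were broad, and these are described here. All 6 lists of accessible regions were merged where they overlapped by at least 1 bp. A merged site was taken as broad when it lay on one of the 16 chromosomes, overlapped a called region in each of the 6 libraries and spanned 500 bp or more. The 1654 sites were 10.2% of the 16239 sites called in all 6 libraries, among 59043 sites on the chromosomes. The other 14585 sites called in all 6 libraries were under 500 bp and are called narrow here. The assay was ATAC-seq, which uses the transposase Tn5 to cut DNA between nucleosomes, and the regions come from the shortest, nucleosome-free fragments. There were 2 queen (Q), 2 worker (W) and 2 drone (D) libraries. Queens and workers are diploid females and drones are haploid males. Every library came from a pool of brains of newly eclosed adults of 1 mother queen, without the optic lobes, and without the hypopharyngeal glands in workers. Workers and drones were taken from capped comb, and queens were raised from larvae grafted into queen cups. A library is a pool, so it does not show the spread between single bees.

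Accessible chromatin marks DNA that proteins can reach. Short accessible stretches are known from promoters, where the transcription machinery assembles. Wider stretches can hold several binding sites for transcription factors next to one another, as in enhancers. A brain library averages over many cell types, so that a site open in few cells and a site partly open in many cannot be told apart.

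The lists held between 28026 and 39158 peaks per library. For each peak they give a fold enrichment, the pileup of fragments at its summit over the local background. The lowest summit pileup was 6 or 7 fragments in each library, and the commonest local background lay between 1.04 and 1.47 fragments. All queen and worker peaks are named with 1 shared run label, whereas drone peaks are named without one. The sources do not say whether drones were sequenced in a run of their own, and such a run cannot be told apart from phenotype in a contrast with drones. Among genes that mark neurons, both brp and Syt1 had a site called in all 6 libraries. None of the marker genes of hypopharyngeal gland (3), fat body (3) and haemocyte (1) had one, and of the 3 opsin genes only Blop did. Over all genes 71.6% had such a site in the body or within 2 kb. The genes brp and Syt1 span 53863 and 24492 bp and the other markers 2427 to 6177 bp, and the part of length was not tested.

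The broad sites had a median width of 603 bp, and 50% of them lay between 544 and 710 bp. The narrow sites had a median of 243 bp. The widest broad site spanned 2129 bp, and 73 spanned 1000 bp or more. Of their 1083273 merged bases, 52.1% were called in every library and 9.62% in a single library. A site's bases called in all 6 libraries had a median of 331.5 bp, and 42 sites had no such base although every library had a peak in them. In 758 sites (45.8%) each library had 1 interval, and in 21 sites each library had at least 2. A single interval of 500 bp or more was seen in all 6 libraries at 277 sites, in exactly 1 library at 457 sites, and in none at 283 sites. The last group reached its width only by merging.

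The shape of the sites was compared between phenotypes. The mean number of bases called per broad site was 481 and 465 bp in the queens, 510 and 539 bp in the workers, and 542 and 491 bp in the drone pair. The queens (473 ± 11.2 bp) lay below the workers (524 ± 20.1 bp) and the drones (516 ± 36.5 bp; SD, n = 2 each), and neither queen library reached any other library. An exact permutation test of the 3 phenotypes, which has no direction, gave p = 0.333 (adjusted p = 0.40 over 2 tests) and could not have gone below 0.0667. The number of separate intervals per site had a mean of 1.28 ± 0.00770 among queens, 1.25 ± 0.0351 among workers and 1.24 ± 0.0406 among drones (SD, n = 2 each), with p = 0.40 in the same exact permutation test (adjusted p = 0.40). The queen and worker libraries overlapped in this measure. An interval of 500 bp or more was present at 610 and 544 sites in queens and 707 and 824 in workers, while drones had 873 and 622. The lists with the most peaks, worker replicate 2 and drone replicate 1, also had the most such sites, and the part of list length in this was not tested.

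**Figure D1:**
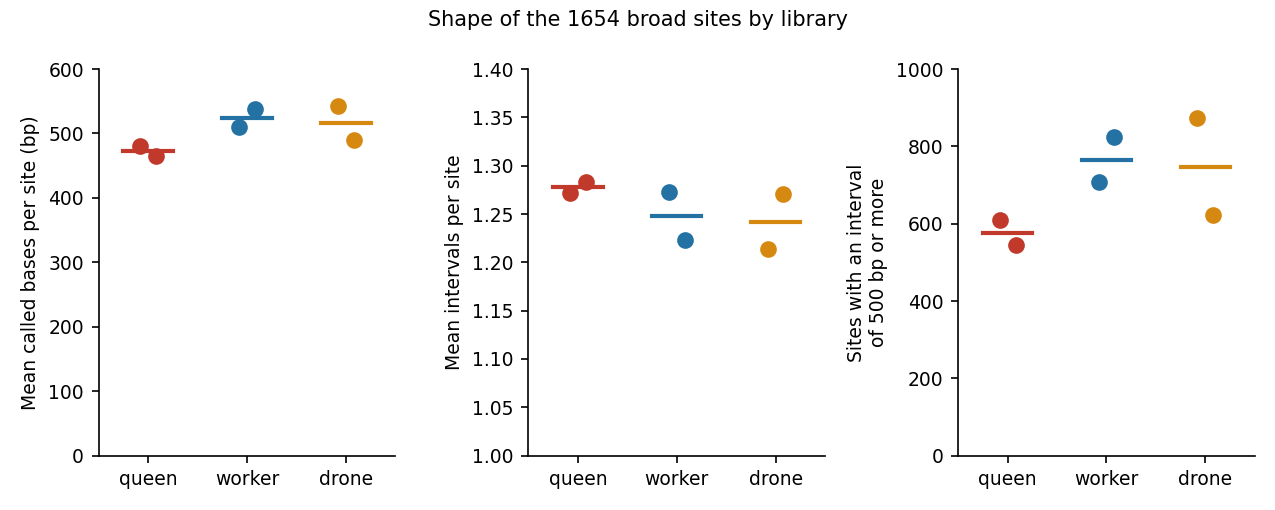
Mean called bases per broad site (bp), mean number of separate intervals per site and number of sites with an interval of 500 bp or more, over the 1654 broad sites. Points are libraries and bars are means of 2, and both queen libraries (481 and 465 bp) lie below the other 4 in called bases, while the axis of intervals starts at 1.

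The widest site covered positions 7423749 to 7425877 on linkage group 7 (LG7, the chromosome name in assembly Amel_HAv3.1), over LOC113218567 and the lower end of LOC113218900, both protein-coding. It was called as 2 intervals in each queen library, 5 in each worker library and 3 and 5 in the drone libraries. The called bases were 2016 and 1786 in queens and 1097 and 903 in workers, with 1432 and 1316 in drones, so that the queens filled most of it. Its highest fold enrichment was nearly the same everywhere, at 5.86 and 5.79 in queens and 5.56 and 5.41 in workers, while drones had 5.98 and 5.93. The summit pileup was not. It reached 76 and 62 fragments in queens, with 26 and 23 in workers and 57 and 40 in drones, and the local background under the summit was 8.25 and 7.97 times the commonest background in queens against 3.71 and 3.30 times in workers.

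None of the other 9 widest sites passed the test of fold in any contrast. The site at 10131188 to 10132834 on LG8, 1647 bp inside LOC552709, had a fold of 11.4 and 11.0 in queens and 12.0 and 12.4 in workers, with 13.4 and 16.2 in drones. The site at 12437299 to 12438969 on LG1, 1671 bp long, bridged the upper end of LOC410723 and the lower end of the long noncoding RNA gene LOC102656191, with a fold between 6.07 and 7.33. On LG9 a site of 1444 bp at the lower end of LOC411347 had a fold of 9.67 to 15.5. One of the 10 widest, 1489 bp near the end of LG2 at 12465 to 13953, had the lowest fold (2.47 to 3.42), over a local background 16.7 to 27.8 times the commonest one. Of all broad sites, 28 (1.69%) had a local background of at least 10 times the commonest one in some library, against 0.647% of all sites called in all 6 libraries.

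The strongest broad sites were ranked by the mean rank of their −log10 q-value within each list. First stood a site of 721 bp inside LOC102656661, at 13699098 to 13699818 on LG6. Its summit pileup was 1063 fragments in both queen libraries and 1181 and 1092 in workers, while drones had 1700 and 1561. The summit fell on the same base, 75 bp into the site, in all 6 libraries. The drones had the most fragments there but the lowest fold, at 37.6 and 34.6, against 40.9 and 46.3 in queens and 40.4 and 46.5 in workers. Their local background was 31.2 and 40.9 times the commonest one, against at most 26.6 times in the other libraries. By fold, drones differed from queens by −0.49 ± 0.12 on the log2 scale (SE; adjusted p = 0.0230, limma), a call that was lost when either queen or either drone library was left out. The next 3 lay near each other on LG4, between 1186538 and 1194674, with pileups of 1396 to 2696 fragments. Their local backgrounds were 148 to 555 times the commonest one and their folds only 3.69 to 9.47. These 3 sites thus ranked high by the number of fragments rather than by fold.

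Below them stood sites with a high fold over an ordinary background. One of 670 bp at 3376825 to 3377494 on LG3 lay inside E74, an ETS-domain transcription factor that responds to the moulting hormone ecdysone in Drosophila. Its fold was 18.3 and 21.9 in queens and 21.2 and 23.1 in workers, with 21.5 and 18.6 in drones. The 3 phenotypes overlapped, and no contrast passed the test (adjusted p between 0.398 and 0.839). The site at 759914 to 760428 on LG2, inside LOC100576733, had a fold of 19.2 and 19.0 in queens and 22.3 and 25.9 in workers, while drones had 26.6 and 29.1, in that order without overlap, and again no contrast passed (adjusted p between 0.174 and 0.938). Among the 10 strongest, a site on LG7 at 5061916 to 5062488, 14535 bp from LOC725406, set the drones apart. The drone libraries had a fold of 36.9 and 37.1 there, against 22.0 and 21.6 in queens and 19.8 and 23.6 in workers. The log2 difference of workers from drones was −0.86 ± 0.13 (SE; adjusted p = 0.00204, limma) and that of drones from queens 0.55 ± 0.13 (adjusted p = 0.0235). The first held without any 1 library, and the second was lost without either queen or either drone library. The drone signal was also narrower: 287 and 303 bp were called in drones, in 2 intervals, and 548 to 561 bp in 1 interval in each other library.

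Across all broad sites the median of the highest fold was 7.70 and 7.87 in queens and 9.41 and 9.99 in workers, with 9.19 and 8.72 in drones. At narrow sites it was 7.09 and 7.15, 8.43 and 8.93, and 8.60 and 7.90, respectively. The median summit pileup of the broad sites was 30 to 41 fragments per library against 21 to 30 at narrow sites, and the median local background was 2.15 to 2.68 times the commonest one against 1.57 to 1.77 times. Pileup and background were therefore both higher at broad sites, and the fold differed less. These values come from the same peaks that fixed the width, so they are a description and were not tested. Along the chromosomes the broad sites made up between 7.97% (LG9) and 13.6% (LG13) of the sites called in all 6 libraries. Neighbouring broad sites were a median of 62691 bp apart, and 40 of 1638 gaps were under 2000 bp.

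Next, the relation of broad sites to genes was examined. The gene table gives the 2 ends of each gene and no strand, so a gene end is either its start or its finish. Of the broad sites, 387 (23.4%) lay within 250 bp of a gene end, against 32.0% of narrow sites and 15.6% of all 59043 sites. A wide site has more room to touch a gene end, so a single point was also used, the median of the 6 strongest summits. It lay within 250 bp of a gene end at 264 broad sites (16.0%, 95% Wilson interval 14.3 to 17.8) and at 28.3% of narrow sites (27.6 to 29.1). Such windows cover 4.99% of the chromosomes up to their last gene or site. Among the narrow sites the share was lower in each wider class, from 46.7% at 69 to 149 bp to 17.05% at 400 to 499 bp. Above 500 bp it was 16.4%, 16.7%, 10.2% and 17.8% in successive classes, whose intervals overlapped. The summit lay inside a gene body at 70.8% of broad and 74.2% of narrow sites. The intervals cover counting error only, and neighbouring sites are not independent.

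**Figure D2:**
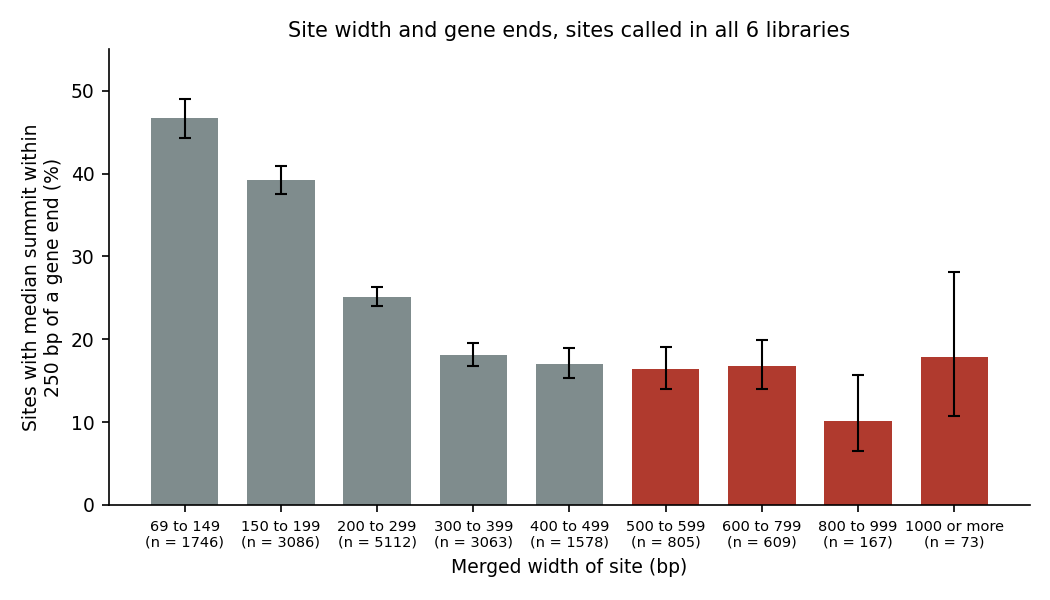
Percentage of sites whose median strongest summit lay within 250 bp of a gene end, by merged width (bp), for sites called in all 6 libraries. Bars are classes of width with 95% Wilson intervals and the number of sites below each. The narrow classes (grey) fall from 46.7% to 17.05%, and the broad classes (red) lie between 10.2% and 17.8%.

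In all, 1319 of 12255 genes (10.8%) had a broad site in the gene body or within 2 kb of it, 974 of them overlapping the body itself. The share was 11.1% of protein-coding genes and 10.5% of long noncoding RNA genes. It was 7.20% of 236 microRNA genes and 3.08% of 195 transfer RNA genes. It was higher in longer genes, from 3.70% of genes under 2 kb to 42.0% of the 1595 genes over 20 kb. Genes with a broad site had a median length of 20749 bp, against 3621 bp over all genes. Every count of named genes below is therefore also a count of long genes, and the part of length in it was not tested. Broad sites stood in clusters in 36 genes that had at least 5. The long noncoding RNA gene LOC113218945 on LG8, of 201838 bp, had the most with 13, among them one of the 10 widest (1468 bp at 3125395 to 3126862). LOC408877 (LG6) and LOC408944 (LG7) had 11 each, and LOC102655600 (a long noncoding RNA gene on LG5) and LOC725329 (LG7) 10 each.

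Genes of the response to ecdysone often had broad sites. Ecdysone binds a nuclear receptor made of Ecr and Usp, which in Drosophila switches on early genes such as E74, E75 and Br-c. Of 6 listed genes, all but Kr-h1, which responds to juvenile hormone, had at least 1 broad site. The share was 10.8% of all genes and 42.0% of genes over 20 kb. The 6 genes had a median length of 89805.5 bp. The 5 with a broad site spanned 54533 to 161432 bp, and the part of length was not tested. E74 had 6 sites, Ecr 4, E75 3, Br-c 2 and Usp 1, and all 16 overlapped the gene body, one of the E75 sites by only 29 of its 537 bp. The widest was a site of 1065 bp in Br-c (3356039 to 3357103 on LG13), at a fold of 7.4 and 7.2 in queens and 7.7 and 7.6 in workers, while drones had 6.3 and 8.6. In Ecr the widest was 771 bp (9725600 to 9726370 on LG8), at a fold of 8.0 to 10.8, and the single Usp site (7448197 to 7448718 on LG9) had a fold of 7.5 and 7.8 in queens and 11.9 and 13.7 in workers, with 13.3 and 11.8 in drones. The queen libraries were lowest at the Usp site, and no contrast of fold passed there (adjusted p between 0.117 and 0.933). No site of these 5 genes passed the test of fold in any contrast.

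Mad, the Smad protein that carries the Dpp signal into the nucleus in Drosophila, had 5 broad sites in its body on LG15. Mad, Ecr and Usp were listed together as genes named in the study's network, a list chosen on these samples, and all 3 had a broad site. One Mad site of 524 bp, at 1288366 to 1288889, differed between phenotypes. Its fold was 11.2 and 13.8 in queens and 11.1 and 11.7 in workers, while drones had 6.61 and 4.82. Both drone libraries lay below the other 4. Without the queen intervals the site would not have reached 500 bp, so the tests of it are a description. The log2 difference of drones from queens was −1.36 ± 0.21 (SE; adjusted p = 0.00192) and that of workers from drones 0.94 ± 0.21 (adjusted p = 0.0153). The first held without any 1 library, and the second was lost without worker replicate 1 or 2 or drone replicate 2. The other 4 Mad sites did not pass in any contrast of fold. At 2 of them the queen libraries had the lowest folds: 6.4 and 9.6 in queens at 1310892 to 1311403, against 11.7 to 13.9 in the rest, and 6.5 and 7.6 at 1342790 to 1343411, against 10.0 to 11.9.

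Homeobox genes, which set body regions and cell identities, had broad sites in 6 of 8 cases. Of all genes 10.8% had one, as did 9.68% of genes of 5 to 20 kb and 42.0% of those over 20 kb. The 8 genes spanned 5383 to 155653 bp, with a median of 17653 bp, and the part of length was not tested. Antp and otd2 had 2 broad sites each and Ubx, Dll, eve and Msx 1 each, while cad and Eyg had none. The site at 6443366 to 6443885 on LG13, in Dll and 230 bp from a gene end, had a fold of 18.3 to 21.7 in all libraries. A site of 755 bp in otd2 (20039271 to 20040025 on LG1), which crossed a gene end with 175 bp inside the gene, had a fold of 14.8 and 12.3 in queens and 16.3 and 16.0 in workers, with 9.8 and 10.7 in drones. The drones were lowest there, and drones against queens was just past the threshold (log2 difference −0.61 ± 0.18, SE; adjusted p = 0.0490), while workers against drones was not (adjusted p = 0.0624). That call was lost whichever library was left out. Msx (15540773 to 15541358 on LG1) had a fold of 17.6 to 23.3 and passed in no contrast of fold.

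Genes of neuronal signalling were listed by kind. Among 21 neurotransmitter receptor genes, of a median length of 63164 bp, 4 had a broad site. That is 19.0%, against 10.8% of all genes and 42.0% of genes over 20 kb, and 90.5% of the 21 had some site called in all 6 libraries. The 4 with a broad site were the acetylcholine receptor subunits nAChRa7 and nAChRa6, with 3 each, and the dopamine receptors Dop1 and Dop3, with 1 each. The widest of the nAChRa7 sites, 849 bp at 1797294 to 1798142 on LG14, crossed a gene end with 116 bp inside the gene and had a fold of 8.2 and 9.8 in queens and 12.2 and 12.7 in workers, while drones had 13.6 and 12.7. The calcium channel gene Cac had 2 sites, of 831 and 1058 bp, and the sodium channel gene Para none. Of 5 synaptic genes, brp and Nrx-1 had a site next to the gene but none in the body. No site of these genes passed the test of fold.

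Several small groups had none, where 10.8% of all genes had one (3.70% of genes under 2 kb and 5.24% of those of 2 to 5 kb). Lists this small can hold none at such shares, so these counts show no trait of the groups. All 7 ribosomal protein genes, all 4 heat shock genes, all 3 neuropeptide genes, both clock genes (Per and Cry2) and both sex determination genes (Csd and Fem) lacked a broad site, as did all 10 marker genes of photoreceptor, hypopharyngeal gland, fat body and haemocyte. The ribosomal protein genes had a median length of 1259 bp, and 85.7% of them had a narrow site called in all 6 libraries. The heat shock, clock and sex determination genes all had such a narrow site too. Among the 4 zinc finger genes only Br-c, and among the 2 bHLH genes only Emc, had a broad site, the latter 1084 bp outside the gene.

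The fold enrichment at broad sites was then compared between phenotypes. The highest fold of each site was taken in each library on the log2 scale, the library medians were set equal and limma was fitted to all 16239 sites called in all 6 libraries, with p-values adjusted over them. Setting the medians equal matters, because the median log2 fold was 2.84 and 2.85 in queens and 3.09 and 3.18 in workers, with 3.12 and 3.00 in drones. Over the 3 contrasts, 97 broad sites were called and 1557 were called in none. Width was set by called intervals, so a site could reach 500 bp only through the phenotype in which it was higher. This was so at the sites in LOC726798 (queens) and LOC100578349 (drones), and at others named as such below. The rule itself favoured such differences, so their p-values and their stability without 1 library are a description.

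With the library medians set equal, queens and workers differed least. In that contrast 2 broad sites passed, both higher in queens (0.121%, against 0.191% of all sites tested). At an unadjusted p under 0.05 there were 150. The site at 2816509 to 2817022 on LG2, inside LOC726798, had a fold of 22.3 and 24.4 in queens and 12.1 and 16.6 in workers, while drones had 14.05 and 12.5. Queens stood alone there. The log2 difference from workers was 1.01 ± 0.16 (SE; adjusted p = 0.00661) and drones differed from queens by −1.03 ± 0.16 (adjusted p = 0.00232). The site at 2215530 to 2216074 on LG11, 781 bp from the long noncoding RNA gene LOC102654106, had a fold of 16.7 and 15.7 in queens and 9.69 and 7.34 in workers, with 16.5 and 12.0 in drones. Here the workers stood alone, with a log2 difference of queens from workers of 1.24 ± 0.19 (adjusted p = 0.00552) and of workers from drones of −0.82 ± 0.19 (adjusted p = 0.0228). Without the queen intervals, or without the worker ones, this site would not have reached 500 bp. Leaving out queen replicate 1 or 2 ended both calls of queens against workers. Leaving out worker replicate 1 ended the call on LG2, and worker replicate 2 the call on LG11. The drone contrast on LG2 held without any 1 library, and that on LG11 was lost without worker replicate 2 or either drone library. Without the setting of medians, 2 broad sites were called higher in queens and 90 higher in workers. The order of the contrasts then changed, with 92 calls here, 57 in worker against drone and 121 in drone against queen.

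In worker against drone, 68 broad sites passed, 45 higher in workers and 23 higher in drones (4.11%, against 4.38% of all sites tested). Broad sites thus passed about as often as sites in general. At 13049222 to 13049772 on LG1, 18395 bp from LOC410719, the fold was 10.2 and 12.1 in workers, 6.07 and 5.31 in queens and 3.72 and 3.37 in drones. Each phenotype was separate from the next, and the log2 difference of workers from drones was 1.57 ± 0.23 (SE; adjusted p = 0.000892), the largest among the broad sites called in this contrast. At 5359801 to 5360314 on LG16, inside LOC550708, it was 11.5 and 13.0 in workers, 6.04 and 7.65 in queens and 4.83 and 4.11 in drones (log2 difference 1.38 ± 0.23, adjusted p = 0.00297). At 4548186 to 4548788 on LG3, inside LOC551970, workers stood apart from both others, with 10.2 and 12.8 against 4.45 and 4.47 in queens and 4.55 and 4.34 in drones (log2 difference from drones 1.28 ± 0.23, adjusted p = 0.00474; from queens adjusted p = 0.0552). Only the worker intervals brought the site in LOC551970 to 500 bp. The site near LOC410719 would not have reached 500 bp without the worker intervals either, which joined separate queen intervals. These 3 sites kept an adjusted p under 0.05 when any 1 library was left out.

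Sites higher in drones than in workers were led by one at 3080952 to 3081517 on LG4, inside LOC102654533. Its fold was 11.5 and 12.9 in drones, 5.34 and 5.77 in workers and 7.27 and 7.58 in queens (log2 difference of workers from drones −1.21 ± 0.21, SE; adjusted p = 0.00483). Near LOC113219148 on LG12, at 1274201 to 1274701, it was 11.9 and 14.7 in drones, 5.33 and 7.82 in workers and 5.43 and 6.89 in queens (−1.11 ± 0.24, adjusted p = 0.0127). In both, the drones lay above all 4 female libraries. The second would not have reached 500 bp without the drone intervals, nor without the worker ones. The first lost its call without drone replicate 2, and the second without worker replicate 1 or drone replicate 2. The count of 68 fell to 18 and 14 without worker replicates 1 and 2 and to 16 and 10 without drone replicates 1 and 2. Without the setting of medians it was 48 higher in workers and 9 higher in drones.

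In drone against queen, 58 broad sites passed, 27 higher in drones and 31 higher in queens (3.51%, against 4.77% of all sites tested). The contrasts share libraries and are not independent. At 4336869 to 4337403 on LG8, inside LOC100576471, the fold was 12.1 and 12.6 in drones, 3.64 and 4.27 in queens and 5.81 and 5.87 in workers. The summit pileup there was 40 and 34 fragments in drones and 8 to 11 in the 4 female libraries. Only the drone intervals brought that site to 500 bp. The log2 difference of drones from queens was 1.43 ± 0.23 (SE; adjusted p = 0.00232), and this call held without any 1 library. At 5257959 to 5258514 on LG16, inside LOC552113, the queens stood apart, with 4.0 and 4.9 against 11.6 and 9.53 in workers and 12.9 and 11.7 in drones (1.26 ± 0.22, adjusted p = 0.00468). Inside LOC100578349 on LG3, at 1348768 to 1349317, the order was queens (4.45 and 5.81), workers (8.72 and 9.29) and drones (13.2 and 11.6), with no overlap (drones from queens 1.07 ± 0.21, adjusted p = 0.0104). The calls at the last 2 sites were lost without either drone library, and that in LOC100578349 also without queen replicate 1.

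Of the sites higher in queens than in drones, the Mad site described above had the largest difference. It was followed by 3 sites at which both drone libraries lay below all 4 female libraries. The Mad site and the one on LG11 would not have reached 500 bp without the queen intervals. Nor would the site in LOC552251 without the worker intervals. At the upper end of LOC724196 (22701609 to 22702264 on LG1) the fold was 12.4 and 13.3 in queens and 13.4 and 13.2 in workers, with 8.26 and 5.30 in drones (−1.17 ± 0.20, SE; adjusted p = 0.00464). Inside LOC552251 (19525233 to 19525765 on LG1) it was 10.0 and 13.4 in queens and 14.4 and 15.4 in workers, while drones had 5.78 and 6.26 (−1.16 ± 0.20, adjusted p = 0.00459). At 7891887 to 7892395 on LG11, 91724 bp from LOC100577455, it was 11.4 and 10.8 in queens, 11.2 and 13.0 in workers and 5.78 in both drone libraries (−1.16 ± 0.20, adjusted p = 0.00429). The Mad site and the last of these kept their calls without any 1 library. The site in LOC552251 lost its call without queen replicate 2 or drone replicate 1, and that at LOC724196 without queen replicate 2 or drone replicate 2. The count of 58 fell to 10 and 14 without queen replicates 1 and 2 and to 11 and 7 without drone replicates 1 and 2. Without the setting of medians it was 111 higher in drones and 10 higher in queens.

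**Figure D3:**
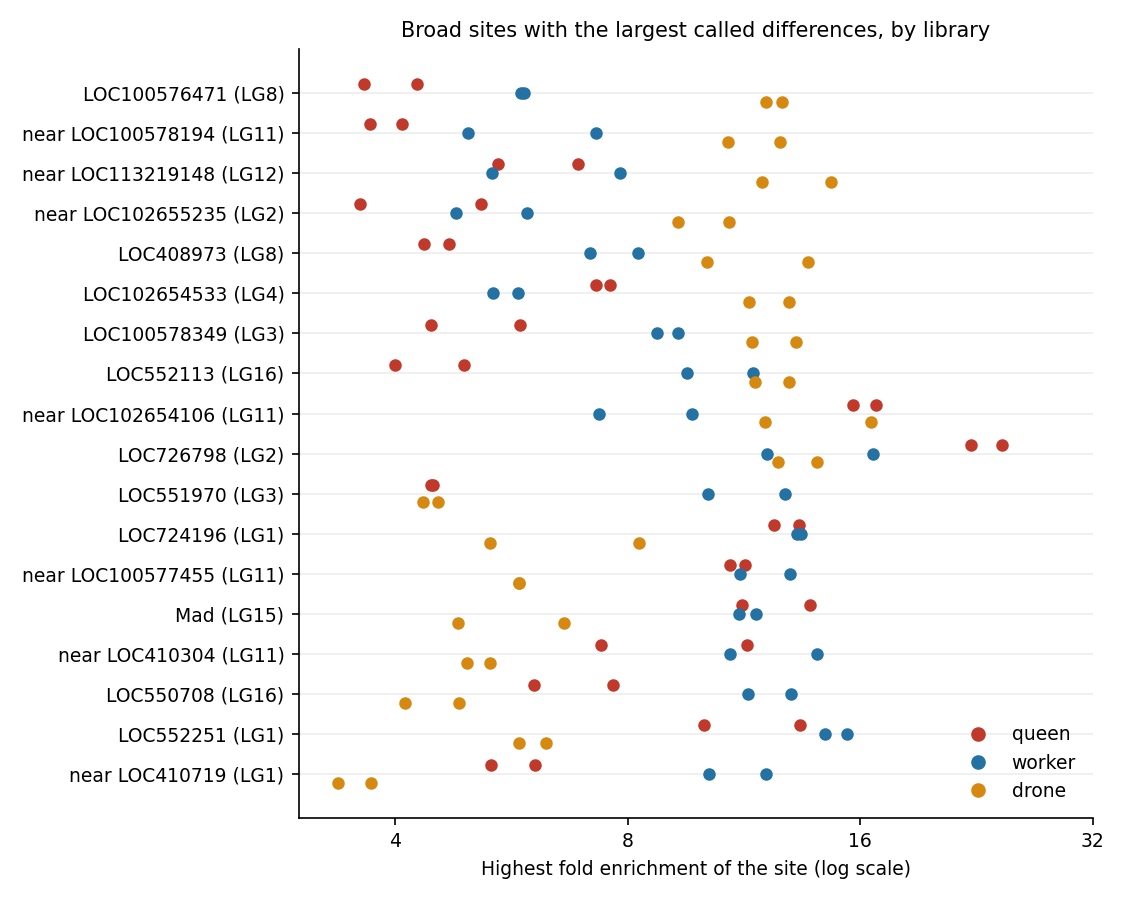
Highest fold enrichment (log scale) in each library at the broad sites with the largest called differences, named by the gene they overlap or lie nearest to. Each point is a library. At the site in LOC100576471 the drones (12.1 and 12.6) lie above the other 4 libraries, at the site in Mad they (6.61 and 4.82) lie below them, and at the site in LOC726798 the queens (22.3 and 24.4) lie above them.

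Fold divides by the local background, which was itself high under broad sites, so the summit pileup over the commonest background of its library was fitted in the same way. More broad sites passed on this measure. For queen against worker there were 43, with 26 higher in queens and 17 higher in workers (2.60%, against 2.47% of all sites tested). For worker against drone there were 266, with 169 higher in workers and 97 higher in drones (16.1%, against 11.6%). For drone against queen there were 301, with 134 higher in drones and 167 higher in queens (18.2%, against 14.2%). The summit pileup, and with it the counting precision, was higher at broad than at narrow sites, and its part in these shares was not tested. Of the sites called by fold, 2 of 2, 66 of 68 and 54 of 58 were called by pileup, and none in the opposite direction. They were 4.65%, 24.8% and 17.9% of the pileup calls. At the 41, 200 and 247 sites called by pileup alone, the local background at the summit differed in the direction of the pileup at 36, 192 and 244. Background was solved from pileup and fold, so a difference in pileup without one in fold nearly requires this. These counts are therefore no separate result.

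Left-out libraries moved these counts. Queen against worker gave 12 and 20 broad sites without queen replicates 1 and 2, against 31 to 40 without any other library. Worker against drone gave 154 without worker replicate 2, and 120 and 114 without drone replicates 1 and 2. Drone against queen gave 159 and 135 without queen replicates 1 and 2, and 144 and 131 without drone replicates 1 and 2. Without the setting of medians, 1048 broad sites were called in queen against worker, 1037 of them higher in workers. In worker against drone 364 were then higher in workers and 37 in drones, and in drone against queen 528 higher in drones and 62 in queens.

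**Figure D4:**
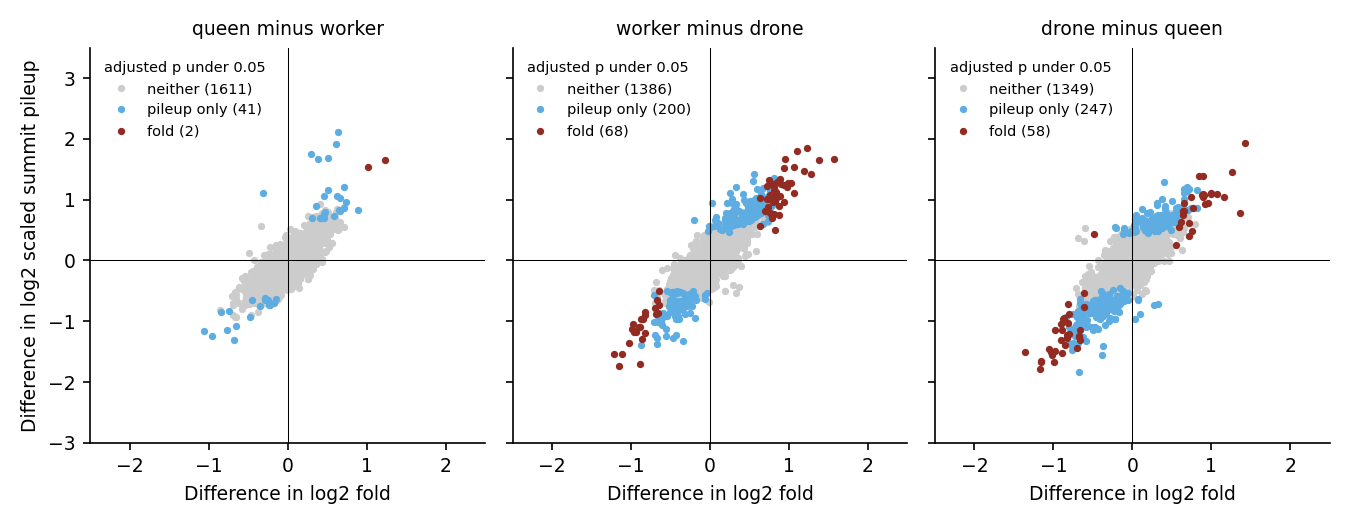
Difference in log2 fold enrichment (horizontal) and in log2 scaled summit pileup (vertical) between phenotypes at the 1654 broad sites, 1 panel per contrast. Each point is a site, coloured by whether it passed an adjusted p of 0.05 by fold (2, 68 and 58 sites), by pileup alone (41, 200 and 247) or by neither.

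At the genes listed above, 42 broad sites were counted. By fold 2 of these (4.76%) passed in some contrast, as did 97 of all 1654 broad sites. By pileup 18 of the 42 (42.9%) passed in some contrast, as did 445 of the 1654. For queen against worker there were 3 pileup calls (7.14%, against 2.60% of broad sites and 2.47% of all sites tested). For worker against drone there were 9 (21.4%, against 16.1% and 11.6%). For drone against queen there were 13 (31.0%, against 18.2% and 14.2%). Of the hormone response genes, all 5 with a broad site had one called by pileup. A gene with several sites had more chances of a call, and E74 had 6, Ecr 4, E75 3 and Br-c 2. The only calls in Br-c and Ecr were near the threshold. For drones from queens they were −0.56 ± 0.19 in Br-c (SE; adjusted p = 0.0426, limma) and 0.63 ± 0.22 in Ecr (adjusted p = 0.0387). The E75 site at 10372010 to 10372546 on LG11, which lies mostly outside the gene, had pileups of 36 and 26 fragments in queens and 39 and 48 in workers, while drones had 89 and 82. The drones lay above all 4 female libraries, with a log2 difference of drones from queens of 1.29 ± 0.18 (SE; adjusted p = 4.11e-07) and of workers from drones of −0.97 ± 0.18 (adjusted p = 0.000146). Both calls held without any 1 library. The Usp site had 34 and 33 fragments in queens, against 54 and 65 in workers and 65 and 44 in drones (queens from workers −0.65 ± 0.18, adjusted p = 0.0357), and an E74 site at 3421071 to 3421757 on LG3 had 14 and 12 in queens, against 34 and 31 in workers and 26 and 22 in drones (−1.15 ± 0.27, adjusted p = 0.00935). The queens were lowest at both sites, and both calls were lost without either queen library or 1 of the worker libraries.

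Among the homeobox genes, the pileup at the Msx site was 71 and 89 in queens and 74 and 91 in workers, against 51 and 45 in drones. The log2 difference of drones from queens was −0.92 ± 0.17 (SE; adjusted p = 8.8e-05) and of workers from drones 0.79 ± 0.17 (adjusted p = 0.000888), and both held without any 1 library. The otd2 site that crosses a gene end had 49 and 37 fragments in queens and 46 and 51 in workers, against 30 and 27 in drones (drones from queens −0.77 ± 0.20, adjusted p = 0.00504, lost without queen replicate 1 or drone replicate 1). In Mad the site at 1288366 to 1288889 was lower in drones than in queens by pileup too (−1.51 ± 0.28, adjusted p = 0.000108), which held without any 1 library. The Mad site at 1045154 to 1046085 was called higher in drones than in queens (0.66 ± 0.23, adjusted p = 0.0433), a call lost without any of the queen or drone libraries. Of the neuronal genes, Cac had a called site of 831 bp at 2426966 to 2427796 on LG3, with 67 and 58 fragments in queens, against 41 and 39 in workers and 52 and 43 in drones. The queens were highest there (queens from workers 0.82 ± 0.18, adjusted p = 0.00408, lost without either queen library), and nAChRa6 had 1 called site (workers from drones 0.71 ± 0.23, adjusted p = 0.0351, lost without worker replicate 2 or either drone library).

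The widest site was among those that differed in pileup and not in fold. Its log2 difference of queens from workers was 1.67 ± 0.19 by pileup (SE; adjusted p = 1.31e-09) and 0.38 ± 0.22 by fold (adjusted p = 0.505). Its neighbour on LG7, 1142 bp at 7426013 to 7427154 over the same 2 genes, had pileups of 75 and 65 fragments in queens and 22 and 20 in workers, with 52 and 47 in drones (queens from workers 1.91 ± 0.19, adjusted p = 2.82e-11). A second pair stood near the start of LG6. At 56353 to 57685 the pileup was 63 and 46 in queens, 19 and 17 in workers and 20 to 22 in drones. At 57953 to 58538 it was 79 and 54 in queens, 18 and 16 in workers and 19 to 23 in drones. On LG6 the queens stood alone, whereas on LG7 the drones lay between. Only the queen intervals brought the LG6 sites to 500 bp. The local background at the LG6 pair was 6.95 to 8.18 times the commonest one in queens and 2.42 to 3.70 times in the other libraries. All 4 sites kept their queen to worker call by pileup without any 1 library. The LG6 pair, the second LG7 site, the site on LG5 shown for its length and the 3 sites that follow were chosen after their values were seen, as those with the largest pileup differences.

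Workers exceeded queens in pileup at 5063823 to 5064566 on LG10, over LOC107965098 and LOC726179, with 31 and 36 fragments against 12 and 12 in queens and 15 and 14 in drones (queens from workers −1.30 ± 0.29, SE; adjusted p = 0.00491, and 0.0790 without queen replicate 1). Inside LOC410362 on LG12, at 6586840 to 6587411, the drones had 77 and 58 fragments, the workers 16 and 26 and the queens 32 and 31 (workers from drones −1.70 ± 0.21, adjusted p = 2.09e-08). Inside LOC100578818 on LG12, at 10953562 to 10954096, the pileup was 21 and 22 fragments in queens and 37 and 40 in workers, with 70 and 59 in drones (drones from queens 1.39 ± 0.20, adjusted p = 5.82e-07). The 3 phenotypes did not overlap at the last site. Only the worker intervals brought the LG10 site to 500 bp, and only the drone intervals the site in LOC410362.

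The number of called bases per site was fitted in the same way, on the log2 scale. No broad site passed for queen against worker (0.0% of all sites tested passed), with 283 at an unadjusted p under 0.05 in limma. For worker against drone 6 passed, all longer in workers (against 0.0431% of all sites), and for drone against queen 65 passed, 26 longer in drones and 39 longer in queens (3.93%, against 1.06%). A narrow site has less room to change in length, and the width of a site was fixed by the same called intervals, so the higher share is a description. One of the 6 lay at 6447876 to 6448555 on LG5, over LOC100578665 and LOC411079. There 678 and 568 bp were called in workers, 141 and 151 bp in queens and 72 and 82 bp in drones (log2 difference of workers from drones 3.01 ± 0.20, SE; adjusted p = 0.0422). Only the worker intervals brought this site to 500 bp. The width rule itself thus favoured longer workers there, and the limma p-value is a description only. With any 1 library left out, no broad site passed in worker against drone or in drone against queen, and none in queen against worker except 1 without worker replicate 2.

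Finally, the position of the strongest summit within broad sites was compared. All 6 summits lay within 50 bp of each other at 189 broad sites (11.4%), and at 43.8% of narrow sites. Replicates of 1 phenotype placed it within 50 bp of each other at 54.3% of broad sites in queens, 60.7% in workers and 56.2% in drones. A summit was counted as moved between 2 phenotypes when both pairs of replicates agreed within 50 bp and the phenotypes differed by 150 bp or more. This was the case at 53 of 601 agreeing sites for queen and worker (8.82%, against 0.719% of all agreeing sites), 51 of 627 for worker and drone (8.13%, against 0.943%) and 48 of 539 for drone and queen (8.91%, against 1.04%). Narrow sites have less room for such a distance, so these backgrounds do not set a level for broad sites, and no test was made.

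The clearest cases were seen in sites with several intervals. At 6024702 to 6025574 on LG3, 676 bp from LOC410944, the strongest summit lay 186 and 187 bp into the site in queens, 817 and 818 bp in workers and 601 and 619 bp in drones, so that each phenotype had its own position. The fold was between 5.41 and 8.40 in all libraries and passed in no contrast. At 23962439 to 23963294 on LG1, inside LOC410785, the drones had it at 132 and 133 bp and the 4 female libraries at 640 to 671 bp. At 13262185 to 13263284 on LG4, inside LOC408767, the queens had it at 244 and 202 bp, the workers at 924 and 925 bp and the drones at 920 and 807 bp. At the upper end of LOC410567 (10383813 to 10385231 on LG14) it was 292 and 297 bp in queens and 1038 and 1055 bp in drones, while the worker replicates, at 548 and 297 bp, did not agree. Where 2 summits of a site are of near height, a small change can exchange their order, and the heights of second summits were not compared.

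**Figure D5:**
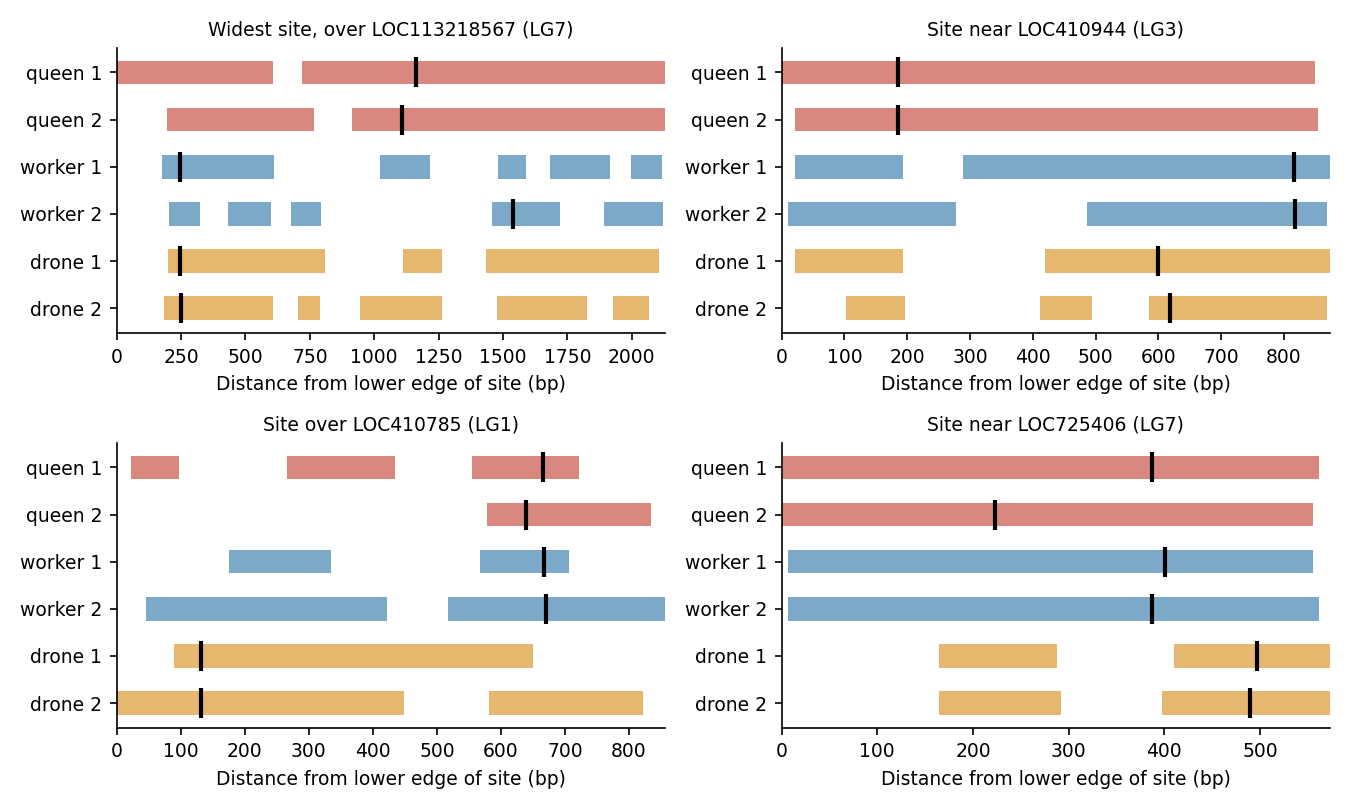
Called intervals (bars) and strongest summit (black line) in each library at 4 broad sites, by distance from the lower edge of the site (bp). In the widest site the queens have 2 intervals each and the workers 5, in the site near LOC410944 the summits lie at 186 and 187 bp in queens and 817 and 818 bp in workers, in the site over LOC410785 the drone summits lie at 132 and 133 bp, and in the site near LOC725406 the drones alone have 2 intervals.

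The width of 500 bp is a line through a continuous range. Just inside it, at exactly 500 bp, stood sites such as 2811655 to 2812154 on LG5, inside LOC100576449, with a fold of 9.28 to 13.0, and 2655324 to 2655823 on LG1, 6888 bp from LOC724992, with a fold of 3.80 to 7.06. Just outside, at 499 bp, stood 13631092 to 13631590 on LG1, inside LOC725885, with a fold of 11.5 to 16.8, and 11287326 to 11287824 on LG5, inside LOC408852, with a fold of 3.43 to 4.88. The ranges on both sides of the line overlapped.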

How the data were processed

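Brains of newly eclosed queens, workers and drones were profiled by ATAC-seq, with 2 replicate libraries each, grouped by sample title. The authors aligned reads with BWA (0.7.17 in the submitters' processing notes, which also name bcl2fastq 2.17) to Amel_HAv3.1, kept nucleosome-free fragments and called peaks in each library with MACS2. The deposited lists give for each peak its positions, the fold ratio of summit pileup to local background, the −log10 p-value and −log10 q-value, and a score. The authors' −log10 q-value was at least 2.00 in every list. Reads were not used here, so no count model was applied. Summit pileup and local background were solved from fold and −log10 p, within 5% of a whole fragment, for 100% of peaks. Depth is known only through these values.

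The members, gene lists and tests were chosen with earlier results of these data known. Lists were merged with Python 3.11.15, pandas 2.3.3, numpy 2.4.6 and scipy 1.17.1, and log2 fold was fitted with limma 3.58.1 in R 4.3.3, adjusted by Benjamini-Hochberg, after tests on simulated data. Genes came from RefSeq's table of Amel_HAv3.1 (12255 genes on 16 chromosomes), which gives no strand, exon or sequence, so gene ends replaced gene starts, and the planned search of promoter sequences was not run. Replicates are pools of brains, and p-values measure the spread between pools. Sites named were the 10 widest, the 10 strongest, up to 5 per direction and contrast with the largest called difference and no overlap, up to 3 per pair with moved summits, 3 on either side of the width threshold, the genes with most broad sites and the widest site of listed genes; examples from these are given. Alternatives were a −log10 q of 5 or more, equal list length, other widths and windows, other scalings, summit pileup, the replicate block and leaving out each library.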

Additional observations from a re-analysis of the deposited data

How the results depend on the processing

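A width of 400 bp or 600 bp gave 3232 or 849 broad sites. The share at gene ends was 17.7% for sites covering one, 32.6% within 1000 bp and 16.0% by the median summit, an alternative chosen after seeing the data. Of the counts called by fold, those for queen against worker were 92 without the setting of medians, 1 with the mean fold over peaks and 43 by summit pileup, those for worker against drone 37 with quantile normalization and 266 by pileup, and those for drone against queen 121 without the setting of medians and 301 by pileup. Pileup without the setting of medians gave 1048, 401 and 590. Leaving out 1 library gave 0 to 2, 10 to 57 and 7 to 61 calls by fold. A lone library left in a phenotype is then assumed to vary like the others. Moved summits numbered 75 in drone against queen at 100 bp, 31, 30 and 28 in the 3 contrasts at 250 bp, and 24, 27 and 20 with replicates within 25 bp. Leaving out a library was not possible there.

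Replicate numbers did not pair the libraries: the deviations of same-numbered libraries correlated at 0.00621, −0.00395 and 0.0113. With a replicate block the counts by fold were 2, 78 and 66 and by pileup, added after seeing the data, 54, 280 and 326, and the exact permutation p was 0.50 for called bases and 0.667 for intervals. Of the 22 named differences by fold, none changed direction. One of 220 values under other settings (LG11, near LOC102654106, by mean fold) and 35 of 132 without 1 library passed the threshold no longer. Leaving out the sites of high local background, also added later, gave 2, 71 and 59 calls. The other 69 values for counts, shares and structure moved by less than 1.5 times, stayed within their interval or, for called bases and intervals, kept their direction.

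The main limits are 2 pools per phenotype, drone peak names that lack the run label the others share, and lists that hold no reads outside peaks.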

Other observations

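Outside the comparisons above, 145 sites on the chromosomes were 500 bp or wider but missed at least 1 library, so that 91.9% of the 1799 wide sites were called in all 6. A further 71 sites of at least 500 bp called in all 6 libraries lay outside the 16 chromosomes and were left out.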
